A study of Mus musculus with 27 samples.

Results

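The 34 genes described here encode proteins of the extracellular matrix and of the contractile and cytoskeletal apparatus of smooth muscle and fibroblasts. They were taken as a list of symbols, and all 34 were found among the 21823 genes of the expression table, 32 under the listed symbol and 2 (Ctgf and Cyr61) under their newer symbols Ccn2 and Ccn1. Levels are FPKM, the number of sequenced fragments of a gene divided by its transcript length and by the size of the library, so genes are compared per length. A minimum of 1 FPKM in 3 libraries was passed by 12952 genes and by all 34 of the list. The list was chosen with earlier results of the same libraries in view, and the question was which of its genes were high together in single libraries, which were not, and which cell state such a set resembles.

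RNA was sequenced from liver tissue of adult female wild-type mice of the C57BL/6 strain (the C57BL/6N line, per the study's methods), cut from frozen sections by laser microdissection, in which an area seen under the microscope is freed with a laser and collected. Non-pregnant mice (NP) were compared with mice at day 8 (dpc8) and day 16 (dpc16) post coitum, and at each stage tissue was taken from zones 1, 2 and 3 of the liver lobule, which gave 9 groups of 3 libraries and 27 libraries in all. By convention zone 1 lies around the portal vein, zone 3 around the central vein and zone 2 between them. The labels do not say whether the zones of one replicate number came from one mouse, and a dissected area holds every cell type present in it.

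In the normal liver the matrix is sparse, and the smooth muscle proteins are found mainly in the walls of the portal vessels. Hepatic stellate cells store vitamin A at rest, and on activation, by injury or in culture, they become myofibroblasts, cells that contract through Acta2-containing stress fibres and secrete fibrillar collagens. Portal fibroblasts, vascular smooth muscle and cultured fibroblasts of most organs share much of the same programme, which is driven in part by serum response factor acting at CArG boxes and by the YAP and TEAD factors, whose classical targets are Ctgf and Cyr61.

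Promoters of 23 of the 34 genes, 25 promoters in all, were found in the RefSeq promoter table (build GRCm38.p6, 250 bases before to 50 after each start). The 4 printed here belong to genes that were high together in the libraries described next, and each holds one of the searched motifs, which stands in capitals on whichever strand it occurred. The capitals mark a CArG box in Myl9 (chr2:156775214-156775513, plus strand, 161 bases before the start) and the letters GGAATG or their reverse complement, the core bound by TEAD factors, in Acta2 (chr19:34255324-34255623, minus strand, 146 bases before the start), Cyr61 (chr3:145649936-145650235, minus strand, 103 bases before) and Tpm1 (chr9:67049164-67049463, minus strand, 56 bases before).
Myl9: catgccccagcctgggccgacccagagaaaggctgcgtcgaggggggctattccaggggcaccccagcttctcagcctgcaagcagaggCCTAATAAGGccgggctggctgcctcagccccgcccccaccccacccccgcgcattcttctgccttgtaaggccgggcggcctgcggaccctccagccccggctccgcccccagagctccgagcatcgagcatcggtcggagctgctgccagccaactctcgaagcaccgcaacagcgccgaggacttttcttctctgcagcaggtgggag
Acta2: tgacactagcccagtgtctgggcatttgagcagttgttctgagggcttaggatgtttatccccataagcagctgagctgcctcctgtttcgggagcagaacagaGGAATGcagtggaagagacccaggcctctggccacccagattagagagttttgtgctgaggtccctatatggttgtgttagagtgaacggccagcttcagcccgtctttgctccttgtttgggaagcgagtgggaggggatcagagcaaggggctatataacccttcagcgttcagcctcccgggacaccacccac
Cyr61: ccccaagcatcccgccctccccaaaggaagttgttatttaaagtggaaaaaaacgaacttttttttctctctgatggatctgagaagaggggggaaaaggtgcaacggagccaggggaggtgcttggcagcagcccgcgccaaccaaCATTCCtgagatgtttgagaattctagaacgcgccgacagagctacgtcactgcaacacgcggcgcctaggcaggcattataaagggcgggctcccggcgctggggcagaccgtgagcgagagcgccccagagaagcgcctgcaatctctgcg
Tpm1: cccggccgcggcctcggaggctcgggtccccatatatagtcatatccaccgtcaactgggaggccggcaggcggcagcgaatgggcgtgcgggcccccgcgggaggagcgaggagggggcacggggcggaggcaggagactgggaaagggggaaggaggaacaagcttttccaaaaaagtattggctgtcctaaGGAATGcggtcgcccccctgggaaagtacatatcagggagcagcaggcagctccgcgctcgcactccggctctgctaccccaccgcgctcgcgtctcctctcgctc
The CArG box was searched as CC, then 6 letters that are each A or T, then GG, which reads alike on both strands. Without a mismatch it was present in 1 of the 25 promoters, against 1.63% of the 32851 promoters in the table. With at most 1 of the 10 letters differing it was present in 6, those of Acta2, Col1a2, Col6a3, Myl9, Timp3 and Tpm1, against 21.1%, and the printed Acta2 promoter held 2 such matches. GGAATG on either strand was present in 7 of the 25, those of Acta2, Cyr61, Col3a1, Col6a2, Tagln2, Timp1 and Tpm1, against 14.7% of all promoters. TGANTCA, the core bound by AP-1 factors, was present in 1 of the 25, that of Col6a1, against 7.81%. These matches describe letters in a window of 300 bases and were not tested for binding.

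Depth, estimated from the steps on which low FPKM values fall, was 7.54 to 33.36 M mapped reads per library. Albumin, the main secretory product of hepatocytes, had between 22396 and 203747 FPKM in every library, so hepatocyte RNA was present in each. Although all mice are labelled female, 6 libraries carried 7.92 to 23.2 summed FPKM of the 4 Y-linked genes Ddx3y, Eif2s3y, Kdm5d and Uty, while the 21 others carried 0 to 2.97, with 11 at 0. The 6 were replicate 1 of NP zone 1, replicate 2 of NP zone 3, replicate 1 of dpc8 zone 1, replicate 2 of dpc8 zone 2, and replicate 3 of zones 2 and 3 at dpc16. They fall on 2 libraries of each stage and 2 of each zone, and 6 of the 9 groups hold 1 of them. They were deeper on the whole, with 13.66 to 33.36 M estimated reads against 7.54 to 22.96 M, and had 11342 to 11997 genes at an FPKM of at least 1 against 10581 to 11416. Comparisons between groups were made with and without them, though not every value is given both ways. They are not groups of the study and no test was made between them and the others. The labels do not account for the Y-linked reads, and whether RNA or tissue of another origin entered these 6 preparations was not tested, so their values describe the libraries and may not be those of the labelled tissue.

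The matrix and smooth muscle genes were high together in exactly these libraries. A gene was called raised in a library when its FPKM was at least 4 times its median over the 27 libraries and at least 1, which is a description and not a test. By that measure 31 of the 34 genes were raised in NP zone 1 replicate 1 (9.82% of all 12952 genes were), 20 in NP zone 3 replicate 2 (4.51%), 31 in dpc8 zone 1 replicate 1 (10.5%), 28 in dpc8 zone 2 replicate 2 (7.97%), 30 in dpc16 zone 2 replicate 3 (10.7%) and 30 in dpc16 zone 3 replicate 3 (8.9%). In the 21 others between 0 and 9 of the 34 were raised, and over these libraries together 1.62% of all gene and library pairs were. The summed FPKM of the 34 genes was 3829 to 15671 in the 6 libraries and 620.5 to 2466 in the others, so the ranges did not touch. The excess thus belonged to single libraries, since in each group concerned the other 2 libraries had at most 9 genes raised.

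**Figure D1:**
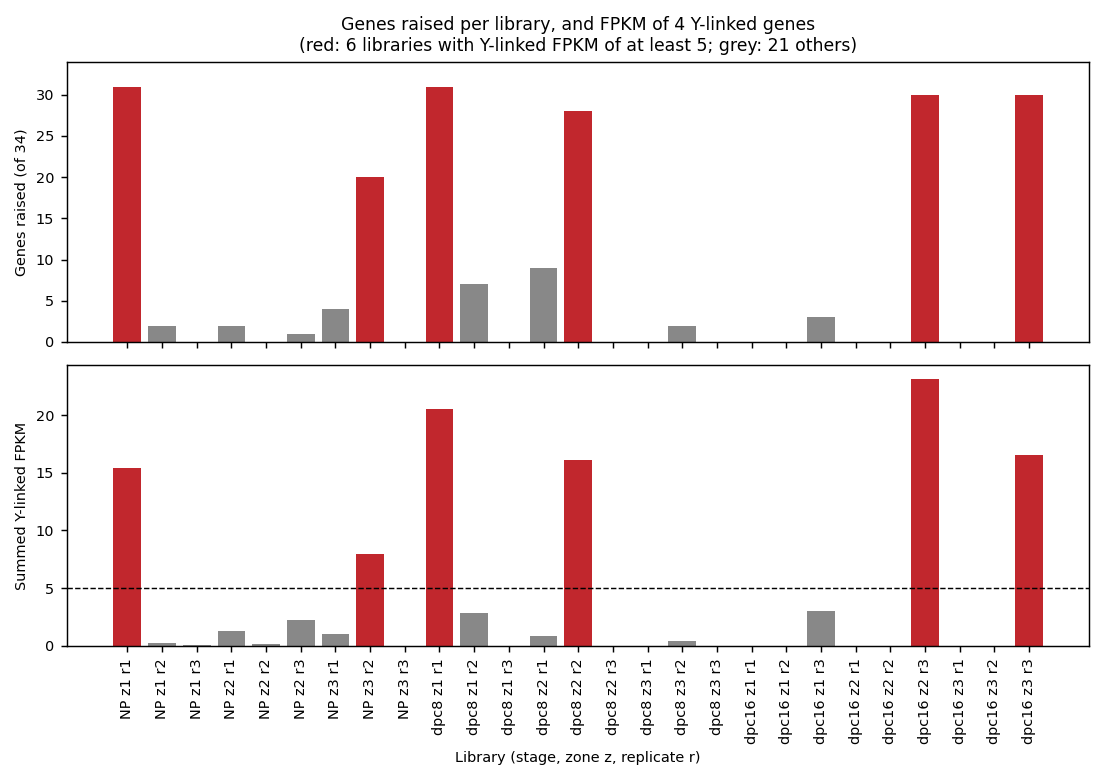
Genes raised per library (upper panel, number of the 34 genes with an FPKM at least 4 times the median of the 27 libraries and at least 1) and summed FPKM of 4 Y-linked genes (lower panel, dashed line at 5) in the 27 libraries, each bar being 1 library. The 6 libraries in red have 20 to 31 genes raised and 7.92 to 23.2 Y-linked FPKM, and the 21 in grey have 0 to 9 and 0 to 2.97.

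A raised gene was counted 170 times in the 6 libraries and 30 times in the others, and the 30 were concentrated too. No gene was raised in 13 of the 21 libraries, and their Y-linked sums were 0 to 0.16 FPKM. Of the 34 genes 2 were raised in NP zone 1 replicate 2 (1.38% of all genes were), 2 in NP zone 2 replicate 1 (1.26%), 1 in NP zone 2 replicate 3 (3.11%) and 2 in dpc8 zone 3 replicate 2 (0.981%), whose Y-linked sums were 0.20 to 2.24. The 1 gene of NP zone 2 replicate 3, Timp1, is no larger a share of the 34 than that of all genes in the same library. At least 3 were raised in NP zone 3 replicate 1 (4 genes, and 2.12% of all genes), dpc8 zone 1 replicate 2 (7, and 2.69%), dpc8 zone 2 replicate 1 (9, and 2.16%) and dpc16 zone 1 replicate 3 (3, and 2.39%), whose Y-linked sums were 0.97, 2.81, 0.80 and 2.97. The genes raised outside the 6 libraries were 10, Col1a1, Col1a2, Thbs1, Timp1, Lox, Loxl1, Acta2, Tagln, Cnn1 and S100a6, all of which were also raised in each of the 6. Whether the Y-linked and the matrix transcripts came from the same cells was not tested, and in tissue RNA a change in the number of cells of a type and in the RNA per cell cannot be told apart.

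**Figure D2:**
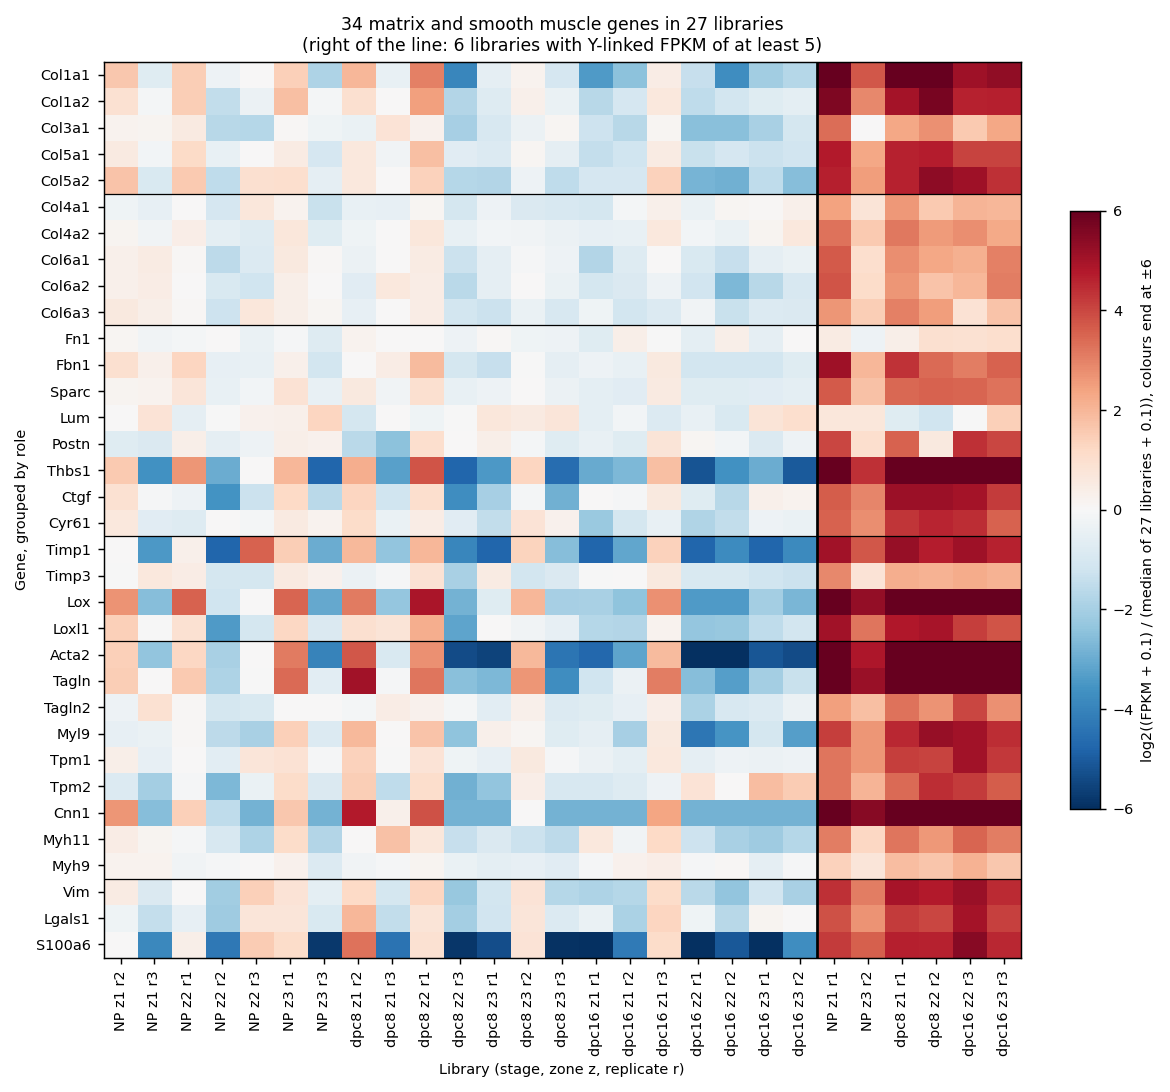
Level of the 34 genes (rows, grouped by role) in the 27 libraries (columns), as log2 of FPKM + 0.1 over the gene's median + 0.1, with red above and blue below the median. The 6 libraries right of the line are red in nearly all rows, with Fn1, Lum and Myh9 pale, and NP zone 3 replicate 2 is paler than the other 5.

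Among the fibrillar collagens, which form the tensile fibres of connective tissue, Col1a1 (ENSMUSG00000001506.10, chr11:94936224-94953042) had 554 FPKM in NP zone 1 replicate 1, 93.1 in NP zone 3 replicate 2, 471 in dpc8 zone 1 replicate 1, 543 in dpc8 zone 2 replicate 2, 234 in dpc16 zone 2 replicate 3 and 277 in dpc16 zone 3 replicate 3. In the 21 others its lowest, median and highest levels were 0.36, 4.67 and 57.4 FPKM. The highest of these, dpc8 zone 2 replicate 1, still lay below the lowest of the 6. Col1a2, which encodes the second chain of type I collagen, ranged from 52.2 to 371 FPKM in the 6 and from 2.05 to 39.2 in the others. Col5a1 and Col5a2, chains of the type V collagen that seeds such fibres, reached 81.9 and 123 FPKM against at most 10.6 and 9.81 in the others. These 4 genes were raised in all 6 libraries. Col3a1, the collagen of fine reticular fibres, behaved differently. It was raised in 4 of the 6, and its 35.1 FPKM in NP zone 3 replicate 2 lay inside the 6.06 to 61.6 FPKM of the others. Its median in the others, 26.7 FPKM, was the highest of the 5 fibrillar collagens, and its median over the 6 was 6.51 times that, against 80.1 times for Col1a1.

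The collagens of basement membranes and microfibrils were high in the same libraries, by smaller ratios than the fibrillar collagens other than Col3a1. The ratio of Col3a1, 6.51, lay among theirs. Col4a1 and Col4a2, the basement membrane chains that also line sinusoids, ranged from 65.2 to 230.3 and from 29.6 to 93.9 FPKM in the 6 libraries. In the others they had medians of 30.7 and 8.498 FPKM and maxima of 61.0 and 16.1. The medians over the 6 were 5.06 and 7.49 times those over the others. Col6a1, Col6a2 and Col6a3, the chains of beaded microfibrils, had corresponding ratios of 7.88, 8.06 and 5.98. None of these 5 genes was raised in NP zone 3 replicate 2, and none was raised in any library outside the 6. For all 5, nevertheless, the 6 libraries lay above each of the 21 others, for Col4a1 by a ratio of lowest to highest of only 1.07.

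The matrix glycoproteins were the most mixed class. Thbs1, a matricellular glycoprotein that activates latent TGF-beta (ENSMUSG00000040152.8, chr2:118111876-118127133), had 920.5 FPKM in NP zone 1 replicate 1, 177 in NP zone 3 replicate 2, 678 in dpc8 zone 1 replicate 1, 944 in dpc8 zone 2 replicate 2, 859 in dpc16 zone 2 replicate 3 and 705 in dpc16 zone 3 replicate 3. The median of the others was 0.98 FPKM and their highest 119, in dpc8 zone 2 replicate 1. The 6 libraries lay above all others, most of which held little Thbs1. Ctgf, the growth factor-binding matricellular protein CCN2, had 104, 64.8, 293, 295, 267 and 153 FPKM in the 6 in the same order, and at most 20.3 in the others. Cyr61, its relative CCN1, had 101, 61.1, 169, 209.8, 190.4 and 102 FPKM, and at most 18.4 in the others. For both relatives NP zone 3 replicate 2 was the lowest of the 6. Their lowest levels in the 6 were 3.20 and 3.32 times the highest in the others, the widest gaps among the 34 genes. Sparc, a collagen-binding glycoprotein, had 133 to 495 FPKM against at most 75.2, and Fbn1, the core of elastic microfibrils, 6.82 to 58.2 against at most 6.40.

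Postn, a matricellular protein of connective tissue, split the 6 libraries. It had 138, 16.97, 98.7, 12.9, 176 and 136 FPKM in the same order, so dpc8 zone 2 replicate 2 fell inside the 1.43 to 17.3 FPKM of the others even though 28 of the 34 genes were raised in it. NP zone 3 replicate 2 also fell inside that range for Postn. Fn1, fibronectin, which hepatocytes secrete into plasma and mesenchymal cells into matrix (ENSMUSG00000026193.15, chr1:71585520-71653200), was raised in none of the 6. It had 487 to 1233 FPKM in them and 350.1 to 782 in the others, a ratio of medians of 1.73. Lum, lumican, a small proteoglycan that spaces collagen fibres (ENSMUSG00000036446.5, chr10:97565128-97572703), was not raised in any library. It had 4.20, 4.19, 1.51, 1.09, 2.52 and 7.05 FPKM in the 6 and 1.20 to 6.37 in the others, and only 1 of its 6 highest libraries was among the 6. Lum was the gene of the 34 that took no part in the excess.

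Among the matrix enzymes and inhibitors, Lox and Loxl1, the oxidases that cross-link collagen and elastin, had 40.3 to 199 and 9.48 to 34.9 FPKM in the 6 libraries. In the others their medians were 0.17 and 0.65 FPKM and their highest levels 30.9 and 4.62, both in dpc8 zone 2 replicate 1. Timp1, an inhibitor of matrix metalloproteinases that is induced by injury, had 35.2 to 99.8 FPKM against a median of 0.24 and a highest level of 31.2, in NP zone 2 replicate 3. All 3 were raised in each of the 6. Timp3, the matrix-bound inhibitor, was already present at a median of 11.7 FPKM in the others and was raised in 5 of the 6, its 22.0 FPKM in NP zone 3 replicate 2 lying just below the highest of the others, 22.9.

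The contractile genes reached the highest summed level of the 6 classes, 5869 FPKM in dpc16 zone 2 replicate 3. Acta2, smooth muscle alpha-actin (ENSMUSG00000035783.9, chr19:34241090-34255590), whose promoter is printed above, had 699 FPKM in NP zone 1 replicate 1, 310.0 in NP zone 3 replicate 2, 1219 in dpc8 zone 1 replicate 1, 1857 in dpc8 zone 2 replicate 2, 1582 in dpc16 zone 2 replicate 3 and 820.0 in dpc16 zone 3 replicate 3. The median of the others was 1.96 FPKM and their highest 143, in dpc8 zone 1 replicate 2. Every one of the 6 was at least 2.17 times that highest level. Tagln (SM22-alpha), an actin-binding protein of smooth muscle, ranged from 337 to 2271 FPKM against a median of 7.09 and a highest level of 303, again in dpc8 zone 1 replicate 2. Cnn1, calponin of smooth muscle, ranged from 30.9 to 202 FPKM, and its median in the others was 0 with a highest level of 19.2. Myl9, the regulatory light chain of smooth muscle myosin, had 38.95 to 229 FPKM against at most 23.6.

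Tpm1 and Tpm2, the tropomyosins that lie along actin filaments, had 165 to 853 and 50.7 to 270.1 FPKM in the 6 libraries. The others had at most 68.3 and 44.6 FPKM, and both genes were raised in all 6. Tagln2, a broadly expressed relative of Tagln, ranged from 54.7 to 249 FPKM against 4.03 to 28.8. Of the 2 myosin heavy chains, Myh11, which defines differentiated smooth muscle, was raised in 5 of the 6, and its median over them was 20.5 times that over the others, against 18.4 for Tpm1 and 15.6 for Tpm2. Its levels were low, however, with 5.69, 1.53, 6.31, 4.07, 7.59 and 5.77 FPKM in the 6, and its 1.53 in NP zone 3 replicate 2 lay below the highest of the others, 2.25. Set against Acta2 on the same per-length scale, Myh11 was low in each of the 6. Myh9, the heavy chain of non-muscle myosin, had 106 to 269 FPKM against 35.9 to 84.2. It was raised in 1 library only, dpc16 zone 2 replicate 3, although none of the 21 others reached the lowest of the 6.

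The 3 cytosolic and cytoskeletal genes that accompany mesenchymal cells were raised in all 6 libraries. Vim, the intermediate filament of mesenchymal cells, had 876, 358, 1280.5, 1129, 1504 and 939 FPKM in the same order, against a median of 20.4 and a highest level of 113 in the others. Its gap between the lowest of the 6 and the highest of the others was 3.16-fold. Lgals1 (galectin-1), a secreted galactoside-binding lectin, had 279.5 to 1384 FPKM against at most 168. S100a6, a calcium-binding protein, had 709.7 to 2569 FPKM and a median of 3.03 in the others, but 556 in dpc8 zone 1 replicate 2.

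**Figure D3:**
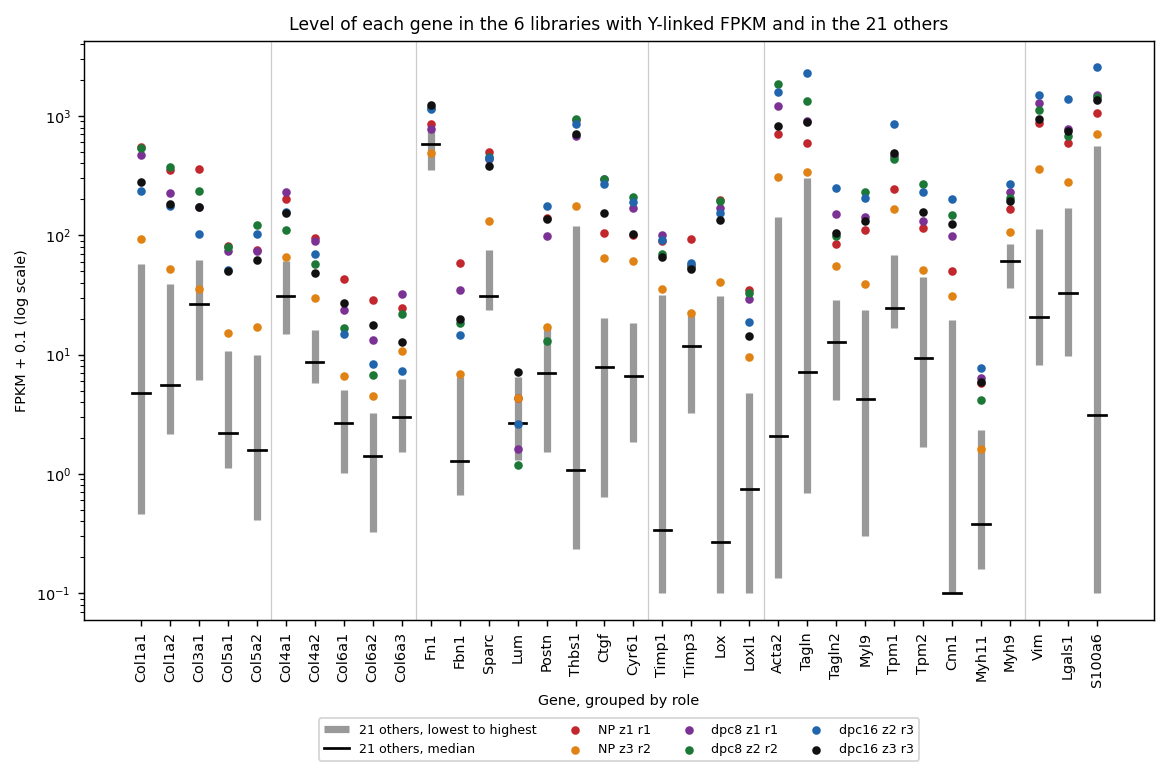
FPKM + 0.1 (log axis) of each of the 34 genes in the 6 libraries with Y-linked FPKM (coloured points) and in the 21 others (grey bar from the lowest to the highest, black line at the median). The points lie above the bar for 28 genes, and for Fn1 and Lum they lie on or near it.

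Counted over roles, 20 of the 34 genes were raised in all 6 libraries, 6 in 5 of them, 4 in 4, 1 in 3, 1 in 1 and 2 in none. For 28 of the 34 all 6 libraries lay above all 21 others, which held for 4.54% of the 12952 genes, and none of the 34 lay below without overlap, which held for 0.664%. The 6 exceptions were Col3a1, Fn1, Lum, Postn, Timp3 and Myh11, and for all of these but Lum 5 of their 6 highest libraries were among the 6. The smallest ratios of the median over the 6 to the median over the others were those of Lum (1.30), Fn1 (1.73), Myh9 (3.25) and Timp3 (4.71). The largest were those of Lox (953), Thbs1 (796) and Acta2 (519). Their medians in the others were low, at 0.17, 0.98 and 1.96 FPKM, so these ratios have small denominators. Cnn1, with a median of 0 in the others, has no such ratio and is left out of this order.

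The 6 libraries differed among themselves in amount and in composition. NP zone 3 replicate 2 had the lowest level of the 6 for 31 of the 34 genes, and its Y-linked sum, 7.92 FPKM, was also the lowest of the 6. NP zone 1 replicate 1 had the highest level for 11 genes and dpc16 zone 2 replicate 3 for 10. The first had the highest summed FPKM of the 5 fibrillar collagens, 1424, with 2073 for the 9 contractile genes. The second had the highest contractile sum, 5869, with 667 for the fibrillar collagens. The sum of the 8 matrix glycoproteins was highest in dpc8 zone 2 replicate 2 (3105), close to dpc16 zone 2 replicate 3 (3103). The ratio of the contractile to the fibrillar sum was therefore 1.46 in NP zone 1 replicate 1 and 8.80 in dpc16 zone 2 replicate 3, with 5.15 in NP zone 3 replicate 2, 3.30 in dpc8 zone 1 replicate 1, 3.39 in dpc8 zone 2 replicate 2 and 3.93 in dpc16 zone 3 replicate 3. In the 21 others the ratio ran from 1.59 to 9.51. The balance of the 2 classes did not separate the 6 libraries from the others, whereas the amounts did.

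The same comparison for other gene lists describes which state the libraries resemble. All 33 of a wider list of matrix genes and all 18 of a wider list of contractile and cytoskeletal genes were measured, and their summed FPKM was 947 to 2830.2 and 5211 to 15839 in the 6, against 403 to 716 and 1923 to 3004 in the others. Most of the second sum in the 6 was Actb, beta-actin, with 4085 to 12234 FPKM. In the first list 14 genes and in the second 11 were higher without overlap (4.54% of all 12952 genes were), among them Tnc (tenascin C, 39.96 to 412 FPKM against at most 22.1), Bgn (biglycan, 202 to 830.4 against at most 146), Actg2 (smooth muscle gamma-actin, 34.9 to 178 against at most 15.3) and Lmod1 (leiomodin, 2.96 to 12.2 against at most 0.64). Dcn (decorin), the main small proteoglycan of resting fibroblasts, was not higher, with 23.9 to 114 FPKM against 36.2 to 152. Eln (elastin) and Des (desmin), genes of arterial wall and of muscle and resting stellate cells, overlapped as well, with 0.11 to 4.15 and 0.73 to 16.2 FPKM against 0 to 2.17 and 0.45 to 5.39. Of 16 further YAP and TEAD targets 5 were higher without overlap, beside the same 4.54% of all genes, and Ankrd1, an immediate target, had 16.4 to 93.8 FPKM against at most 3.49.

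Of 13 genes used as fibroblast markers, 11 of which passed the minimum, 4 were higher without overlap (4.54% of all genes were), namely the transcription factors Twist1, Prrx1 and Prrx2 and the cadherin Cdh11, and the summed level was 352 to 1123 FPKM against 4.01 to 298. Most of that sum came from Thy1 and S100a4, the latter with 238 to 594 FPKM in the 6. Prrx1 had 16.7 to 74.3 FPKM against at most 7.24. Thy1, a surface protein of fibroblasts, had 464, 63.5, 315, 5.84, 519 and 422 FPKM in the same order, against at most 52.4, so dpc8 zone 2 replicate 2 was low in it as it was in Postn. Pi16 and Clec3b, markers of fibroblasts of the adventitia, had at most 0.20 and 1.29 FPKM in the 6. The 13 markers of resting stellate cells summed to 126 to 314 FPKM in the 6 and 155 to 384 in the others, with none higher without overlap, and Lrat, the enzyme of vitamin A storage, had 0.81 to 8.27 FPKM against 1.55 to 10.7. The libraries were thus high in contractile and matrix genes and in several of the fibroblast markers, while the resting stellate genes did not separate them.

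Of 9 genes of embryonic growth, 8 of which passed the minimum, 2 were higher in these libraries without overlap (4.54% of all genes were). Hmga2, a chromatin protein of embryonic and cultured mesenchyme, had 26.7 to 108 FPKM against at most 8.52, and Igf2bp2, an RNA-binding protein of growing tissue, 7.69 to 22.1 against at most 4.97. Igf2, the fetal insulin-like growth factor, had 72.1, 30.6, 105, 2.15, 93.1 and 107 FPKM against at most 6.03, and dpc8 zone 2 replicate 2 was again the exception. The placental lactogen gene Prl3d1 had 26.98 FPKM in dpc16 zone 2 replicate 3 and 6.93 in dpc16 zone 3 replicate 3. It was listed at 0 in the other 4 of the 6 and reached at most 0.64 elsewhere. Of the 5 other placental and decidual genes examined, Prl8a2, Prl3b1, Prl3c1 and Tpbpa were listed at 0 in all 6 libraries, and Plac1 was above 0 in 1 of them, dpc16 zone 2 replicate 3, with 1.39 FPKM against at most 2.30 in the others. None of the 10 pluripotency genes reached 1 FPKM in any of the 6. Acta1, skeletal muscle alpha-actin, had 8.80 to 104 FPKM against at most 2.18, and with it the summed level of the 8 striated muscle genes was 9.80 to 109 FPKM against at most 4.28. Of the other 7 none was higher without overlap. The cardiac troponin gene Tnnt2 had 4.16, 1.003, 5.02, 0, 2.19 and 2.26 FPKM in the same order against at most 3.39. Tnnt3 had 2.32 in dpc16 zone 2 replicate 3 and was listed at 0 in the other 5. Myh1, Myh4, Myh6, Ckm and Actc1 were under 1 FPKM in all 6.

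Markers of the other cells of the liver differed among lists. Endothelial, macrophage, erythroid, lymphocyte and neutrophil, and hepatocyte sums were in no library of the 6 above the highest of the others. The summed levels in the 6 and in the others were 88.0 to 180.1 and 126 to 276 FPKM for 12 endothelial genes, 56.8 to 287.5 and 104 to 624 for 11 macrophage genes, 34.5 to 261 and 90.3 to 524 for 7 erythroid genes and 4.35 to 11.2 and 5.05 to 41.2 for 10 lymphocyte and neutrophil genes. The 13 hepatocyte genes summed to 54082 to 95925 against 60064 to 290324. The 6 mesothelial genes had 1.19 to 8.20 FPKM against at most 2.05, and their sum lay above all others in 5 of the 6, with medians of 4.70 and 0.21 FPKM. The 7 cholangiocyte genes overlapped, with 39.3 to 169 against 2.98 to 148, but their median sum was 70.1 FPKM in the 6 and 17.7 in the others. The 19 proliferation genes summed to 109 to 299.8 FPKM against 15.8 to 173 and overlapped too, with the highest sum and 17 genes raised in dpc8 zone 1 replicate 1. Their median sum was 128 FPKM in the 6 and 37.3 in the others. What part each of these cell types had in the levels of the 34 genes was not tested.

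**Figure D4:**
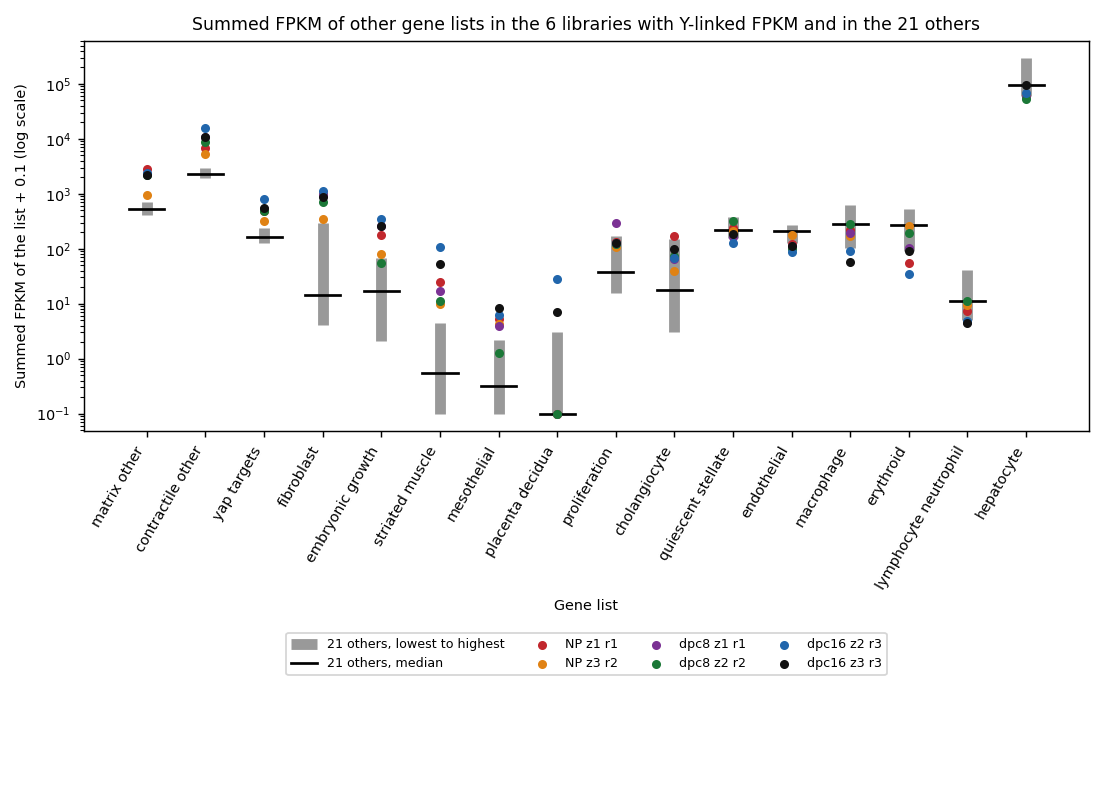
Summed FPKM + 0.1 (log axis) of 16 further gene lists in the 6 libraries with Y-linked FPKM (coloured points) and in the 21 others (grey bar from the lowest to the highest sum, black line at the median). The points lie above the bar for the wider matrix and contractile lists, YAP targets, fibroblast and striated muscle genes, and within or across it for stellate, endothelial, blood and hepatocyte genes.

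As background, smooth muscle actin, SM22-alpha and calponin together with type I collagen, lysyl oxidase and tenascin C is the textbook combination of activated myofibroblasts, and a high smooth muscle myosin heavy chain with desmin and elastin that of vessel walls. In these 6 libraries the genes of the first set were higher than in all others without overlap. Of the matrix genes of the list outside that set, Col3a1, Fn1, Lum, Postn and Timp3 overlapped with the others. The genes of the second set were present at lower levels per length than Acta2 and overlapped with the others, but they were not uniformly low. Myh11 was raised in 5 of the 6, Des exceeded the highest of the others in 3 (8.17, 16.2 and 5.97 FPKM), and Eln did so in 1 (4.15). The smooth muscle genes Actg2 and Lmod1 were higher without overlap, as given above. The resemblance is in the genes named and was not tested against any reference of such cells.

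Genes outside the list with the widest gap between the 6 libraries and the others, taken by the ratio of the lowest to the highest level, included Map6, Jph2, Sfrp2, Cd109, Ankrd1, Lmod1, Gm2115, Phgdh and Ndn. Map6, a microtubule-stabilising protein, had 6.97 to 20.6 FPKM against at most 0.87. Phgdh, the first enzyme of serine synthesis, had 19.9 to 56.0 FPKM against at most 4.53. Ankrd1 and Lmod1, already named, are among the YAP targets and the contractile genes.

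Stage and zone were then compared over groups of 3 libraries, with limma on log2(FPKM + 1) over all 12952 genes and adjustment by the Benjamini-Hochberg method. At dpc8 against NP none of the 34 genes passed an adjusted p of 0.05 in zone 1, zone 2 or zone 3, where 0.0309%, 0.00772% and 0.0154% of all genes did. At dpc16 against NP again none of the 34 passed in zone 1, zone 2 or zone 3, where 1.37%, 2.66% and 1.32% did. Between zone 1 and zone 3 none passed in NP (1.34% of all genes) or dpc8 (1.61%) and 1 passed at dpc16 (1.55%). Before adjustment Lum had a p under 0.05 in 4 of the comparisons, and none of the other 33 had one in any. The shares of all genes with such a p were 3.13%, 5.06% and 2.74% at dpc8 against NP, 11.0%, 16.6% and 11.5% at dpc16 against NP, and 8.02%, 12.2% and 7.86% between zones in NP, dpc8 and dpc16 mice.

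The medians of the list are given as a description, with no test. The median log2 fold change of the 34 genes was 0.05 in zone 1, 1.39 in zone 2 and -1.13 in zone 3 at dpc8 against NP, and -1.76, 0.67 and -0.05 at dpc16 against NP. Between zone 1 and zone 3 it was 0.54 in NP mice, 1.79 at dpc8 and -1.06 at dpc16. The median over all genes stayed between -0.05 and 0.08. In dpc16 against NP in zone 1, where NP holds 1 of the 6 libraries and dpc16 none, all 34 genes were lower. In dpc8 against NP in zone 2, where it is dpc8 that holds 1, 33 of 34 were higher.

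Without the 6 libraries the medians at dpc8 against NP were 0.07, 0.20 and -0.42 in zones 1, 2 and 3, and at dpc16 against NP they were -0.44, -0.65 and -0.80. Between zone 1 and zone 3 they came to 0.02 in NP mice, 0.65 at dpc8 and 0.37 at dpc16. Without all 6 the sign turned in 2 of the 9 comparisons, dpc16 against NP in zone 2 and zone 1 against zone 3 at dpc16. In these fits, where 6 groups keep 2 libraries, none of the 34 genes passed in any of the 9 comparisons. Of all genes 0.0695%, 0.0386% and 0.0695% passed at dpc8 against NP, 2.92%, 4.45% and 3.61% at dpc16 against NP, and 1.81%, 2.76% and 2.71% between the zones in NP, dpc8 and dpc16 mice. Leaving out single libraries moved the medians. At dpc8 against NP in zone 1, where each group holds 1 of the 6, the median was -1.09 without dpc8 zone 1 replicate 1 and 1.26 without NP zone 1 replicate 1. At dpc16 against NP it was -0.65 in zone 2 without dpc16 zone 2 replicate 3, and in zone 3 it ran from -1.39 without dpc16 zone 3 replicate 3 to 0.62 without dpc16 zone 3 replicate 1. Between zone 1 and zone 3 it was -0.52 in NP mice without NP zone 1 replicate 1 and 0.37 at dpc16 without dpc16 zone 3 replicate 3. The sign thus turned in 5 of the 9 comparisons when 1 library was left out. With array weights it turned in 2, to -0.03 at dpc8 against NP in zone 1 and to -0.44 at dpc16 against NP in zone 2, and with quantile normalization in 1, to -0.02 at dpc8 against NP in zone 1.

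**Figure D5:**
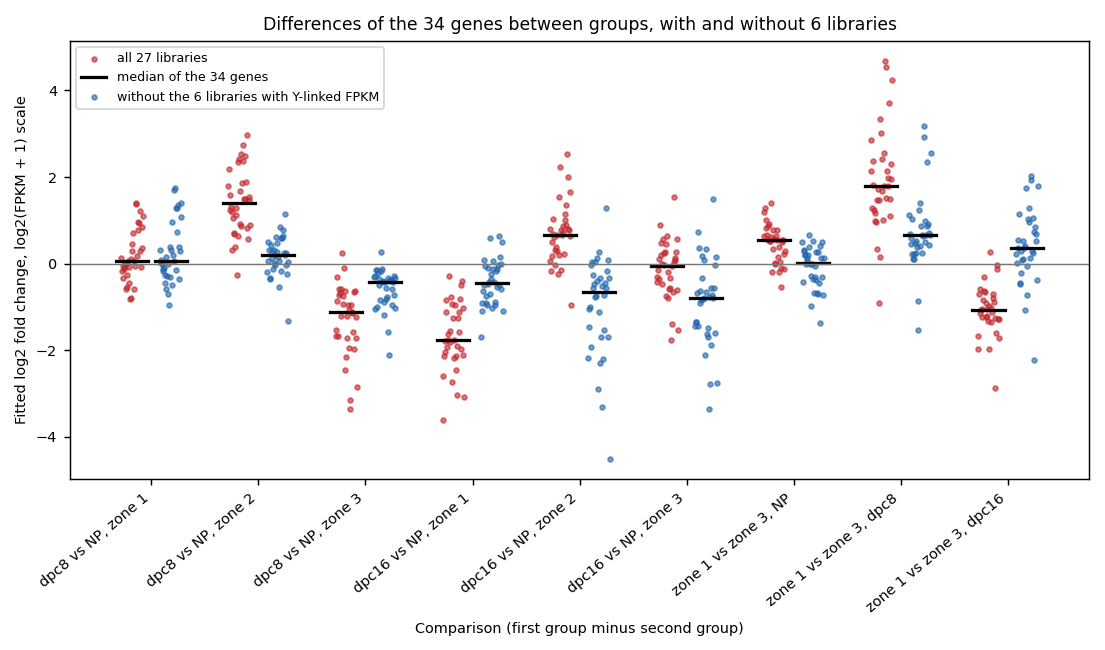
Fitted log2 fold change, on the log2(FPKM + 1) scale, of the 34 genes (points) in the 9 comparisons with all 27 libraries (red) and without the 6 libraries with Y-linked FPKM (blue), with a black line at each median. The red medians run from -1.76 to 1.79 and the blue from -0.80 to 0.65.

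The gene that passed was Lum, the one without the shared excess. At dpc16 it had 1.71, 2.30 and 1.41 FPKM in zone 1 and 4.46, 5.35 and 7.05 FPKM in zone 3, so the groups did not overlap. It was lower in zone 1 by a log2 fold change of -1.23 ± 0.28 (SE, adjusted p = 0.0204 by limma, n = 3 each). In dpc8 mice the values were 1.51, 1.20 and 2.58 FPKM in zone 1 and 4.20, 3.78 and 4.32 FPKM in zone 3, again without overlap, and the log2 fold change of -0.91 ± 0.28 did not pass (adjusted p = 0.130 by limma, n = 3 each). In NP mice they were 4.20, 2.65 and 4.62 against 3.21, 4.19 and 6.37 FPKM, which overlapped, with a log2 fold change of -0.20. The difference between the NP and dpc16 zone contrasts was -1.03 ± 0.40 and did not pass (adjusted p = 0.993 by limma, n = 3 each). Without dpc16 zone 3 replicate 3, the only one of the 6 libraries in the dpc16 contrast and the highest value, the log2 fold change was -1.08 and the adjusted p 0.134 by limma. Without all 6 libraries it was -1.08 with an adjusted p of 0.0824.

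Without the 6 libraries and before adjustment, the list had 1, 0 and 0 genes with a p under 0.05 at dpc8 against NP in zones 1, 2 and 3, where 4.71%, 6.66% and 4.66% of all genes had one. It had 3, 2 and 2 at dpc16 against NP (14.2%, 19.0% and 15.4% of all genes), and 1, 4 and 4 between zones in NP, dpc8 and dpc16 mice (9.94%, 13.2% and 11.0%). Postn, lower in zone 1 than in zone 3 at dpc8 by -1.53 ± 0.40 (SE, adjusted p = 0.0541 by limma), came nearest to the threshold.

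In the wider lists, 1 of 33 matrix genes passed in each of 3 comparisons with all 27 libraries, and none of 18 contractile genes or 16 YAP and TEAD targets passed in any of the 9. The 3 comparisons were dpc16 against NP in zone 1 and zone 1 against zone 3 in NP and dpc8 mice, where 1.37%, 1.34% and 1.61% of all genes passed. Dcn (decorin), a small proteoglycan related to Lum, was lower in zone 1 than in zone 3 in dpc8 mice by -1.61 ± 0.33 (SE, adjusted p = 0.00812 by limma), with 23.9, 36.2 and 47.6 FPKM in zone 1 and 105, 102 and 115 in zone 3. Without the 6 libraries it was lower in zone 1 at all 3 stages, by -1.14 in NP mice, -1.35 at dpc8 and -1.03 at dpc16 (adjusted p = 0.0170, 0.00176 and 0.0139 by limma). Mfap4, a microfibril-associated protein of elastic tissue, was lower at dpc16 than in NP mice in zone 1 by -2.34 ± 0.55 (adjusted p = 0.0324 by limma). Its values were 14.3, 5.70 and 2.08 FPKM in NP and 0.26, 0.44 and 0.34 in dpc16 mice, without overlap, and without the 6 libraries the difference was -1.76 (adjusted p = 0.00416 by limma). In NP mice Mfap4 was also higher in zone 1 than in zone 3, by 2.29 ± 0.55 (adjusted p = 0.0369 by limma).

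Without the 6 libraries, Cald1 (caldesmon, an actin-binding regulator of contraction) was higher at dpc16 than in NP mice in all 3 zones, by 0.999 in zone 1, 1.13 in zone 2 and 1.15 in zone 3 (adjusted p = 0.0398, 0.0136 and 0.0288 by limma). Its levels were 109 to 145 FPKM in the NP libraries kept and 185 to 307 in the dpc16 libraries kept, so these did not overlap. With all 27 libraries the fold changes were 0.45, 1.48 and 1.16 and none passed. The 6 libraries held 198 to 607 FPKM of Cald1. Nt5e, an ectonucleotidase counted here among YAP targets, was higher at dpc16 in zone 1 by 1.52 and in zone 3 by 1.68 (adjusted p = 0.0320 and 0.0287 by limma). Also without the 6 libraries, Cnn3 was lower at dpc16 than in NP mice in zone 2 by -1.12 (adjusted p = 0.0407 by limma). It had 79.8 and 87.6 FPKM in the dpc16 libraries kept and 167 to 216 in NP, but 285 in dpc16 zone 2 replicate 3, which was left out. In the same fits Fmod and Lama4 were higher in zone 1 than in zone 3 at dpc8 by 1.01 and 1.33 (adjusted p = 0.0368 and 0.0375 by limma).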

How the data were processed

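RNA of 27 laser-microdissected liver samples (9 groups of 3, grouped by sample title) had been sequenced after depletion of ribosomal RNA. The deposited values are FPKM that the authors computed per gene, and the submitters' processing notes name cutadapt, HISAT2 2.1.0, Cufflinks 2.2.1, Cuffdiff and the mm10 genome. FPKM is scaled to the mapped total, so a large share of RNA from one source lowers the values of all other genes. No counts were used, and depth was estimated from the steps of low FPKM values (7.54 to 33.36 M, median 16.44 M, with 92.67% to 97.59% of low values on a step).

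The 12952 genes that reached 1 FPKM in 3 or more libraries entered the tests. Group means were fitted to log2(FPKM + 1) of all 27 libraries with limma 3.58.1 in R 4.3.3 (trend and robust settings, two-sided, Benjamini-Hochberg over 12952 genes, threshold 0.05). Fold changes on this scale understate those of weakly expressed genes. The study describes its experiments as independent and in different mice, whereas the labels do not tie each library to a mouse, so p-values measure the spread between these samples. In a check of the dpc8 against NP contrast in zone 1, on data simulated from the means of the 12952 genes, limma called 77 of 100 genes with a true log2 difference of 2, 96 of 100 with one of 4, and 11 of 12752 with none. Libraries with a Y-linked sum of at least 5 FPKM were left out in an alternative chosen after seeing the data. Counts of raised genes and list sums had no test.

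All 34 genes are reported by role. Of other genes, members of the lists and those of the 10 with the widest gap between the Y-linked libraries and the rest are named, except an item that is not reported here. The members and lists were chosen with earlier results of these data known. Alternatives were a pseudocount of 0.1, no filter, quantile normalization, array weights, only the groups compared, the replicate number as a block, leaving out each library, and other definitions of a raised gene. Positions came from GENCODE on mm10 and promoters from RefSeq. Deviations from the group mean in libraries that share a number but not a zone had correlations of 0.26 to 0.86 at dpc16, all 9 above 0.1, and the numbers were taken as pairing there. Of such correlations, 5 of 9 at dpc8 and 4 of 9 in NP mice exceeded 0.1. The value of 0.86 at dpc16 was between zones 2 and 3 of replicate 3, which are both among the 6 libraries. Pairing by mouse and an excess shared by these libraries cannot be told apart there.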

Additional observations from a re-analysis of the deposited data

Results flagged for a closer look

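The 4 Y-linked genes lie outside the comparisons of the matrix and smooth muscle genes. Among the pregnant groups their summed FPKM exceeded the highest NP library, 15.4, in 4 libraries, with 20.5 in dpc8 zone 1 replicate 1, 16.1 in dpc8 zone 2 replicate 2, 23.2 in dpc16 zone 2 replicate 3 and 16.6 in dpc16 zone 3 replicate 3. The same 4 libraries had 28 to 31 of the 34 genes raised. NP zone 1 replicate 1, which set the NP maximum, had 31 raised. Whether RNA or tissue of another origin entered these libraries was not tested.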

How the results depend on the processing

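The number of libraries with at least 17 of the 34 genes raised was 6 under every definition but 2. It was 7 when 2 times the median sufficed and 5 when 8 times was needed, the library then missing being NP zone 3 replicate 2. Of the 9 counts of genes passing the threshold, 7 stayed at 0 under all 13 alternatives each. In zone 1 against zone 3 at dpc8 array weights gave 1, which was Lum, in a fit where 6.60% of all genes passed. At dpc16 the count of 1 became 0 with quantile normalization, 0 with only the groups compared and 0 without the libraries with Y-linked FPKM. Leaving out 1 library gave 0 to 1, with 0 without dpc16 zone 1 replicate 1, zone 1 replicate 3, zone 3 replicate 2 or zone 3 replicate 3. When replicate number entered as a block, a pairing inferred at dpc16 from correlated deviations only, the count stayed at 1 and the other 8 at 0. Lum then differed by -1.23 (log2) with adjusted p = 0.0105 by limma. Over all alternatives its log2 fold change was -1.59 to -1.06. Low depth limits genes near 0, since 1 read on a transcript of 1 kilobase is worth 0.03 to 0.133 FPKM.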
